A study of Mus musculus with 10 samples.

Results

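Cortex of mouse embryos from litter 3 was compared with cortex from litter 1 at embryonic day 12. The comparison took every library that the labels place in these litters, which gave 3 libraries of litter 3 and 5 of litter 1, or 8 of the 10 libraries of the series. The series was made to compare a conditional knockout of Zbtb7a, a zinc finger transcription factor gene, with its controls by RNA sequencing of polyadenylated RNA. The litters are its batches, per the labels. Litter 1 gave the libraries WT 1, WT 2, cKO 1, cKO 2 and cKO 3, and litter 3 gave WT 3, WT 4 and cKO 4.

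Libraries called WT have the genotype Emx1 Cre/+; Zbtb7a +/+, and libraries called cKO have Emx1 Cre/+; Zbtb7a fl/fl. Every library of either litter therefore carries Emx1-Cre, a recombinase expressed from the Emx1 locus in progenitors of the dorsal telencephalon. Blood, vessel, meningeal and ventral cells in the dissected tissue do not descend from those progenitors. Each library is labelled as a separate animal, and the description of the series counts fewer cortices and litters than the labels do. The remaining libraries, WT 5 and cKO 5 of litter 5, were kept out of the main comparison and their values are given beside it. Each side of the comparison is 1 litter, so that litter, developmental stage, dissection and the handling of libraries cannot be told apart, and the p-values measure the spread between embryos of these litters only.

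The dorsal telencephalon is built by apical progenitors that line the ventricle and express Pax6 and Sox2. They give rise to intermediate progenitors, which express Eomes, and these divide to give neurons that switch on Neurod2 and Tbr1. The first neurons gather under the pial surface, and transcripts of neurons and intermediate progenitors are known to increase through this period. Embryonic blood at this age holds primitive red cells from the yolk sac, which carry the embryonic globins Hbb-y, Hbb-bh1 and Hba-x. Red cells made later in the fetal liver carry adult globins only. A cortical dissection also includes vessels, resident macrophages and the mesenchyme that forms the meninges, and it can include choroid plexus or ventral telencephalon.

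The 4 genes below mark the directions of the comparison, Hbb-y and Hba-x among genes higher in litter 3 and Neurod2 and Eomes among genes lower in it. The 250 bases before each annotated start are given from RefSeq on GRCm38.p6, 5′ to 3′ on the gene's strand. In the globin promoters capitals mark CACCC, the core bound by Krüppel-like factors such as Klf1, AGATAA or TGATAA, the core bound by GATA factors, and CCAAT, each searched on both strands, and TATAAA on the given strand. In the other promoters capitals mark CAGATG or CAGCTG, E-boxes of the kind bound by neuronal basic helix-loop-helix factors, searched on both strands.
Hbb-y, chr7:103853208-103853457, minus strand: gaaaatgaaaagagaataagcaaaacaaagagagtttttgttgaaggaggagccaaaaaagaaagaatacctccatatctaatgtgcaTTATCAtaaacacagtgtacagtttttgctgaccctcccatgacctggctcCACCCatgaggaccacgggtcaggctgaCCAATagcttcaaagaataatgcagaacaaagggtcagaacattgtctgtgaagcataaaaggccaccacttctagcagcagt
Hba-x, chr11:32276350-32276599, plus strand: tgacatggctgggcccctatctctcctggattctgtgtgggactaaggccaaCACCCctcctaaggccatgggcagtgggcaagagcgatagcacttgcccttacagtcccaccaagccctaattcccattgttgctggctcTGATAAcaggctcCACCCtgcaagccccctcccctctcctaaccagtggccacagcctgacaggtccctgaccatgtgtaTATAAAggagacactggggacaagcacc
Neurod2, chr11:98329646-98329895, minus strand: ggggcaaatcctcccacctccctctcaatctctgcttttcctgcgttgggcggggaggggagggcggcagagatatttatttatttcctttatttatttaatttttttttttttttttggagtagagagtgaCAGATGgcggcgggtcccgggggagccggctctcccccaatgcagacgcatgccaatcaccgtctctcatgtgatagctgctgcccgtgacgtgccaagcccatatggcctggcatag
Eomes, chr9:118477939-118478188, plus strand: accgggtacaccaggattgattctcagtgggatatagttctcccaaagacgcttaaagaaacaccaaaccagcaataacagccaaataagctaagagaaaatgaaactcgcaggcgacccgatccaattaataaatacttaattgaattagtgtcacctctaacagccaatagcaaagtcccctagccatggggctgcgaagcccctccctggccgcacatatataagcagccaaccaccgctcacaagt
The Hbb-y window held 1 CACCC, 1 GATA core and 1 CCAAT, and the Hba-x window held 2 CACCC, 1 GATA core and 1 TATAAA. The Neurod2 window held 1 E-box and the Eomes window held neither form of it. CCAAT, not marked in these windows, occurred 2 times in Neurod2 and 2 times in Eomes, and 0 times in Hba-x. CACCC, the GATA core and TATAAA occurred 0 times in the Neurod2 and Eomes windows. Over 32851 mouse promoters of the same length, 52.0% held CACCC, 16.6% the GATA core, 33.8% CCAAT, 7.59% TATAAA and 25.5% the E-box letters. Hbb-bh1 had no entry in the promoter table. A match is a description of the sequence and not a site of binding.

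The values are TPM, in which a gene's level is relative to its transcript length and to all other genes of the library, and which keep no read depth. The libraries held 18991 to 19944 genes above 0. Zbtb7a, the targeted gene, was at 12.5 and 11.2 TPM in the WT libraries of litter 1 and at 4.57, 3.52 and 4.73 TPM in its cKO libraries. In litter 3 it was at 7.20 and 7.46 TPM in WT and at 5.96 TPM in cKO 4, so the WT libraries were the higher ones in each litter and the gap was smaller in litter 3. Between the litters Zbtb7a did not pass the test (log2 fold change -0.18, SE 0.22, adjusted p = 0.563). The label of cortex was checked on Emx1, a factor of the dorsal telencephalon whose locus drives the recombinase, which was at 209.5, 209.9, 209.8, 197 and 155 TPM in litter 1 and 127, 156 and 119 TPM in litter 3. Xist, which is expressed from the inactive X of female cells, was above 1 TPM in cKO 1, cKO 3, WT 3 and cKO 4.

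Genes with at least 1 TPM in at least 3 of the 8 libraries were tested, 14269 in all, by limma on log2(TPM + 1) with genotype as a covariate. At a Benjamini-Hochberg adjusted p under 0.05, 851 genes (5.96%) were higher in litter 3 and 3668 (25.7%) were lower. A fold change is given as a difference on this log2 scale, litter 3 minus litter 1, with its standard error, and the pseudocount makes it smaller than the true ratio in genes of low TPM. The median fold change of all tested genes was -0.15. Leaving out WT 1, WT 2, WT 3 or cKO 4 left 520, 431, 526 or 364 genes higher, and leaving out WT 1 or WT 2 left 2439 or 2311 lower. After scaling the libraries by the median ratio, which removes that shift, 1668 genes (11.7%) were higher and 1938 (13.6%) were lower, so that 46.3% of the called genes were higher in place of 18.8%. All 851 genes higher in the main test stayed higher under this scaling, and 1938 of the 3668 lower genes stayed lower. Between the litters 1044 genes (7.32%) had all litter 3 values above all litter 1 values, and 4182 (29.3%) had all of them below.

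Over the tested genes, pairs of libraries correlated at 0.975 to 0.983 within litter 1, at 0.971 to 0.974 within litter 3 and at 0.949 to 0.970 between them (Pearson's r on log2(TPM + 1), as a description). On the first principal component, with 41.2% of the variance, litter 1 lay between -25.2 and -14.2 and litter 3 between 28.0 and 46.7. WT 3 lay farthest from litter 1.

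The litter difference also ran with transcript length. Genes were ordered by their longest annotated transcript and cut into 10 bins of equal size. The bin of the shortest genes, 199 to 1073 bases, had a median fold change of 0.13, and that of the longest, 6687 bases and more, had -0.48. In the shortest bin 15.9% of genes were called higher and 3.57% lower, and in the longest bin 1.12% were called higher and 52.4% lower. Across 14254 genes Spearman's rho of fold change with length was -0.42, where the genes are not independent and share the 8 libraries. With each library corrected for this relation, 1148 of 14254 genes (8.05%) were higher and 1432 (10.0%) were lower. Of the genes called in the main test, 632 stayed higher and 1401 stayed lower after the correction. Many neuronal genes are long, so that a difference in long transcripts and one in neuronal genes cannot be told apart by the correction.

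**Figure D1:**
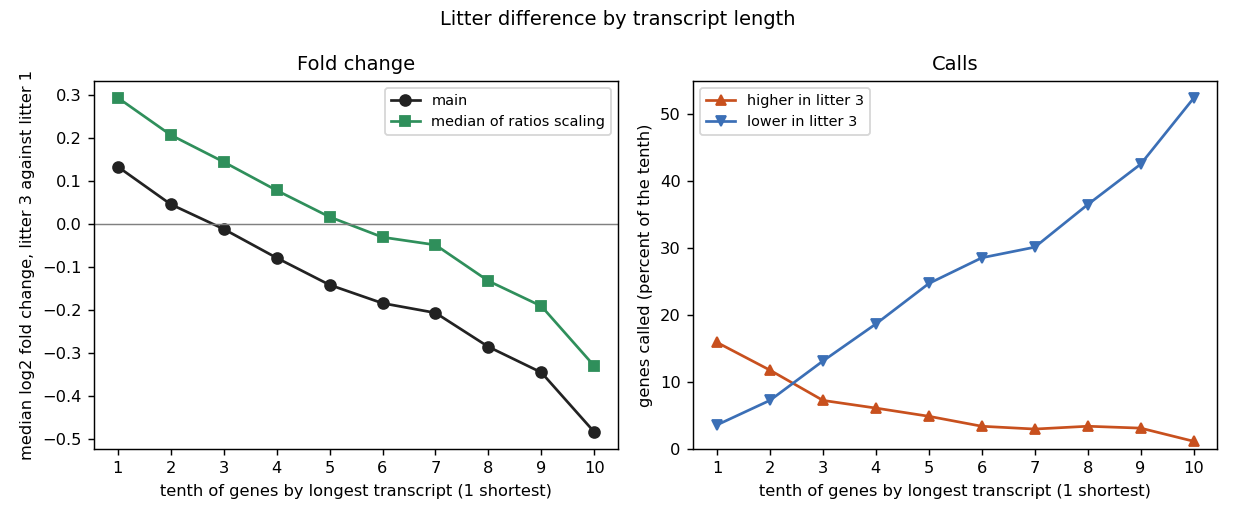
Left, the median log2 fold change of litter 3 against litter 1 (y axis) in 10 equal bins of genes by longest annotated transcript (x axis, 1 shortest), for TPM and after median of ratios scaling. Right, the percent of genes of each bin called higher or lower. The median falls from 0.13 in the shortest bin to -0.48 in the longest, and the percent called lower goes from 3.57 to 52.4.

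Hbb-y had the highest TPM of all genes called higher in litter 3, and globins as a group took a larger share of the transcripts there. The 8 globin genes of the table took 5.42%, 5.57% and 4.17% of all TPM in WT 3, WT 4 and cKO 4, against 1.73% to 1.97% in litter 1, with no overlap. The means were 5.05% ± 0.766 (SD, n = 3) and 1.87% ± 0.0929 (SD, n = 5), a ratio of 2.71. The difference of 3.19 percentage points gave p = 0.0179 in a two-sided exact permutation test, the smallest p that the 56 splits into 3 and 5 libraries allow. Hbb-y and Hba-x, among these 8 genes, were already markers of this litter difference. The test therefore describes the separation of the libraries and is not independent support for it. The libraries of litter 5 held 2.39% and 2.64%, between the litters.

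**Figure D2:**
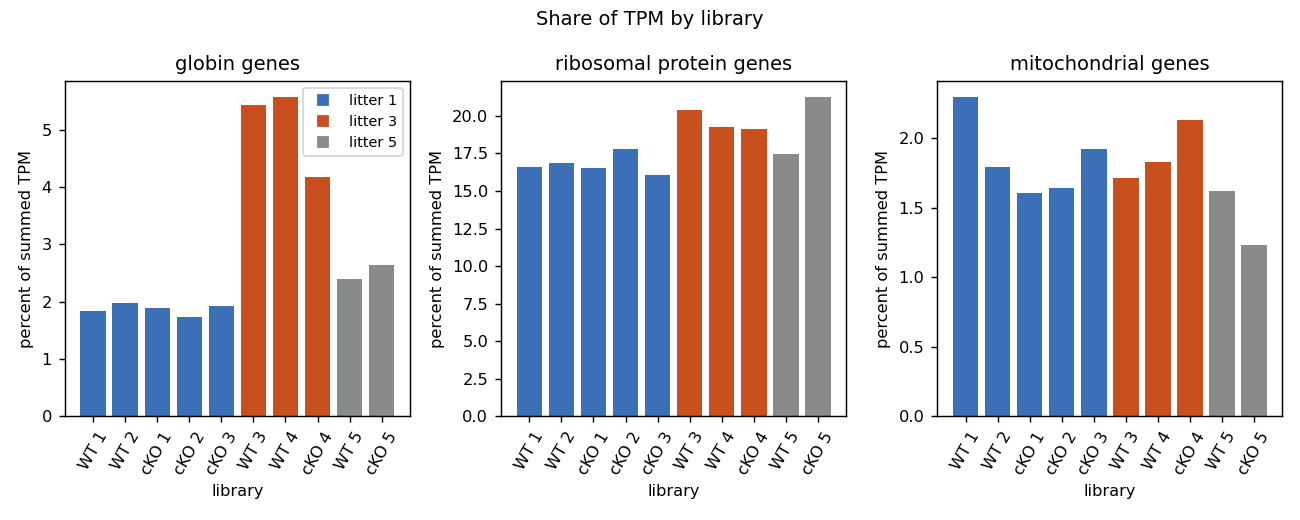
Percent of summed TPM (y axes, from 0) taken by globin, ribosomal protein and mitochondrial genes in each of the 10 libraries (x axes), coloured by litter. The 3 libraries of litter 3 hold 4.17% to 5.57% globin, above the other 7, and 19.2% to 20.4% ribosomal protein transcripts, above litter 1.

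Of the 5 embryonic globin genes listed, 3 were tested and all 3 were higher, where 5.96% of all genes were. Their median was 1.74 beside -0.15 over all tested genes. Below, values stand in the order WT 1, WT 2, cKO 1, cKO 2 and cKO 3 for litter 1 and WT 3, WT 4 and cKO 4 for litter 3. Hbb-y (chromosome 7, 103851749 to 103853216, GRCm38), the main beta-like globin of primitive red cells, was at 7569, 7902, 7554, 6615 and 7896 TPM in litter 1 and at 21218, 22492 and 17306 TPM in litter 3. It was 2.71 times as high in litter 3, where the WT libraries were above cKO 4 and all 3 were above litter 1 (log2 fold change 1.39, SE 0.08, adjusted p = 0.00023). Hba-x (chromosome 11, 32276400 to 32278116), the embryonic alpha-like globin, was at 1701, 1636, 1311, 1255 and 2242 TPM against 5033, 5166 and 5796 TPM. Its litters did not overlap and cKO 4 was here the highest library (log2 fold change 1.74, SE 0.18, adjusted p = 0.00112). Hbb-bh1, the beta-like globin of the earliest primitive cells, was at 601, 596, 382, 477 and 878 TPM against 2155, 1938 and 3052 TPM, the largest difference of the globins tested (log2 fold change 2.08, SE 0.26, adjusted p = 0.00147). Among the members not tested, Hbb-bh2 was at or below 0.42 TPM in all libraries.

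The adult globins were mostly higher as well. Of 4 tested, 3 were higher, where 5.96% of all genes were, with a median of 1.20. Which kind of red cell these transcripts came from was not tested. Hba-a1, an adult alpha globin, was at 3224, 3478, 3568, 3191 and 3123 TPM in litter 1 and 9316, 9983 and 6571 TPM in litter 3 (log2 fold change 1.30, SE 0.11, adjusted p = 0.000764). Hba-a2 gave 1.20 (adjusted p = 0.0013) and Hbb-bt, an adult beta globin, gave 1.20 (adjusted p = 0.00157). Hba-a1 and Hba-a2 are 99.8% identical over 538 bases and Hbb-bs and Hbb-bt 94.9% over 585, so how reads were shared within each pair is uncertain. Hbb-bs was at 608, 817, 826, 999.9 and 505 TPM against 2543, 1730.5 and 700.4 TPM, where cKO 4 lay inside the range of litter 1, and it did not pass (log2 fold change 0.86, SE 0.36, adjusted p = 0.101). Within WT the fold changes of the 4 adult globins were 1.53, 1.53, 1.57 and 1.53, and within cKO they were 1.00, 0.77, -0.09 and 0.76, in the order Hba-a1, Hba-a2, Hbb-bs and Hbb-bt. The interaction of litter and genotype passed for none of them.

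Other genes of red cells shared the direction of the globins. Of 23 red cell membrane genes 14 were higher and 2 lower, where 5.96% and 25.7% of all genes were, with a median of 1.01. Slc4a1, the band 3 anion exchanger, was at 23.6, 22.6, 17.99, 12.7 and 26.8 TPM against 62.6, 65.7 and 58.1 TPM (log2 fold change 1.51, SE 0.20, adjusted p = 0.00169). Rhd, of the Rh blood group, was at 1.20 to 4.44 TPM in litter 1 and 10.96 to 14.3 TPM in litter 3, and Kel, the Kell blood group peptidase, at 2.43 to 3.91 and 9.90 to 14.9 TPM. Neither overlapped between the litters (1.75 and 1.71, adjusted p = 0.00343 and 0.00119). Trim10, a ubiquitin ligase of maturing red cells, gave 1.23 (adjusted p = 0.00242).

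Of 18 genes of haem synthesis and iron handling, 9 were higher and 0 lower, where 5.96% and 25.7% of all genes were, with a median of 0.35. Alas2, which catalyses the first step of haem synthesis in red cells, was at 25.3, 26.1, 26.9, 19.1 and 26.7 TPM against 70.1, 74.8 and 61.5 TPM, with no overlap (log2 fold change 1.40, SE 0.12, adjusted p = 0.000789). Fech, the last enzyme of the pathway, which other cells also use, differed less (0.70, adjusted p = 0.00382). Slc25a37, mitoferrin, which brings iron into mitochondria, gave 1.37 (adjusted p = 0.0031). Among 11 other red cell genes 6 were higher, with Car2, a carbonic anhydrase, at 14.4 to 35.8 against 67.6 to 75.5 TPM and Epor, the erythropoietin receptor, at 0.48 to 1.47 against 2.98 to 5.83 TPM.

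Of 14 erythroid transcription factors 6 were higher and 4 lower, where 5.96% and 25.7% of all genes were, so that the share lower is near that of all genes. After median of ratios scaling 8 were higher and 3 lower, and after the length correction 6 and 2. Tal1, a factor of blood and endothelial progenitors, was at 2.91 to 4.05 TPM in litter 1 and 8.25 to 10.6 TPM in litter 3 (1.27, adjusted p = 0.00135). Nfe2, which acts on globin genes, gave 1.22 (adjusted p = 0.00119) and Gfi1b, a repressor of the red cell lineage, gave 1.66 (adjusted p = 0.00198). Bcl11a, a globin repressor that cortical neurons also express, was lower, at 112, 111, 129.8, 122 and 116 TPM against 60.7, 72.95 and 68.9 TPM (-0.77, adjusted p = 0.00109). In tissue of this kind, more red cells and more RNA per red cell cannot be told apart, and the same holds for fewer cells of any type named below and less RNA in each.

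Progenitor and neuron genes of the cortex were mostly lower in litter 3. The medians were -0.55 over 19 apical progenitor genes, -0.77 over 20 intermediate progenitor genes and -1.02 over 20 genes of early cortical neurons. These are descriptions, and the differences between the lists were not tested. Other neuron lists, given below, had medians from -0.94 to -0.18 and do not continue this order. None of the genes of the 3 lists was called higher, and 14, 16 and 17 were called lower, where 25.7% of all tested genes were. Median of ratios scaling left medians of -0.38, -0.59 and -0.87 with 9, 15 and 15 lower, and called 1 apical progenitor gene higher. The length correction left -0.31, -0.56 and -0.69, with 10, 15 and 12 lower.

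Among the apical progenitor genes, Sox2, a factor that maintains neural progenitors, was at 260.2, 249, 237, 218 and 248 TPM in litter 1 and at 134, 156 and 177 TPM in litter 3. All litter 3 libraries were below all of litter 1 (log2 fold change -0.64, SE 0.10, adjusted p = 0.00279). Sox3, its relative, was at 282 to 352 against 151 to 197 TPM (-0.87, adjusted p = 0.0013), and Vim, an intermediate filament of radial glia and mesenchyme, at 1701 to 1977 against 1254 to 1404 TPM (-0.44, adjusted p = 0.00184). The defining marker Pax6 was lower (-0.46, adjusted p = 0.0257), though not after median of ratios scaling (-0.29) or the length correction (-0.20), whereas Hes5, a Notch target, did not pass (-0.25, adjusted p = 0.0503).

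Eomes (chromosome 9, 118478212 to 118486132), the T-box factor of intermediate progenitors, was at 126, 105, 141, 121 and 113 TPM in litter 1 and at 43.7, 63.97 and 46.1 TPM in litter 3. The highest litter 3 library, WT 4, stayed well under the lowest of litter 1, WT 2 (log2 fold change -1.24, SE 0.14, adjusted p = 0.00129). Insm1, which promotes the formation of these cells, was at 61.02 to 85.3 against 25.1 to 34.3 TPM (-1.17, adjusted p = 0.00121). Neurog2, the proneural factor upstream of Eomes, was at 226 to 328 against 111 to 197 TPM (-1.03, adjusted p = 0.00408). Elavl2, Dll3, Btg2 and Coro1c were lower by smaller amounts, from -0.83 for Elavl2 to -0.50 for Btg2.

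Neurod2 (chromosome 11, 98325415 to 98329648), a basic helix-loop-helix factor of differentiating cortical neurons, was at 62.97, 62.5, 83.8, 84.5 and 41.7 TPM in litter 1 and at 22.99, 31.5 and 10.5 TPM in litter 3. The litters did not overlap, the means being 67.1 ± 17.8 (SD, n = 5) and 21.7 ± 10.6 (SD, n = 3), but each varied widely, and cKO 3 of litter 1 and cKO 4 of litter 3 were the lowest of their litters (log2 fold change -1.78, SE 0.33, adjusted p = 0.00511). Neurod6 and Bhlhe22, which act in the same neurons, were also lowest in cKO 3 and cKO 4 within their litters. Neurod6 was at 98.6, 103, 157, 165 and 71.7 TPM against 50.3, 66.95 and 14.8 TPM (log2 fold change -1.72, SE 0.45, adjusted p = 0.0199), and without cKO 4 it no longer passed (-0.78, adjusted p = 0.157). Bhlhe22 (-1.68, adjusted p = 0.0152) likewise did not pass without cKO 4 (-0.87, adjusted p = 0.122).

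Tbr1 and Bcl11b gave steadier differences. Tbr1, the T-box factor of the earliest cortical neurons, was at 122, 108, 152, 138 and 152 TPM against 44.7, 58.4 and 65.7 TPM (log2 fold change -1.15, SE 0.10, adjusted p = 0.000764), and its fold change was -1.15 within WT and -1.15 within cKO. Bcl11b, a factor of deep-layer neurons, was at 40.9 to 54.5 against 17.4 to 20.7 TPM (-1.22, adjusted p = 0.00109). Cntn2, a cell adhesion molecule of early axons, was at 39.2 to 50.2 against 16.4 to 18.8 TPM (-1.32, adjusted p = 0.000764).

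Genes that neurons of all kinds use were lower as well. Of 16 neuronal RNA-binding genes 14 were lower, where 25.7% of all genes were, with a median of -0.94. After the length correction 11 were lower, where 10.0% of all genes were. Nova2, a splicing factor, was at 20.2 to 28.6 TPM in litter 1 against 6.35, 7.96 and 10.5 TPM in litter 3 (log2 fold change -1.30, SE 0.13, adjusted p = 0.00109), and Elavl3, an RNA-binding protein of postmitotic neurons, at 60.8 to 78.9 against 23.8 to 33.5 TPM. Of 20 cytoskeletal genes 12 were lower, again beside 25.7% of all genes, with a median of -0.48. Dcx, doublecortin, a microtubule protein of migrating neurons, was at 60.5, 54.3, 83.9, 79.5 and 102 TPM against 25.5, 24.8 and 36.8 TPM (log2 fold change -1.19, SE 0.10, adjusted p = 0.000764). Kif5c, a neuronal kinesin, was at 113 to 129.6 against 62.1 to 66.1 TPM (log2 fold change -0.92, SE 0.06, adjusted p = 0.000696).

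Axon guidance and adhesion genes were lower in 16 of 26, where 25.7% of all genes were, with a median of -0.78. Slit1, a secreted guidance cue, was at 11.1, 10.5, 12.9, 12.5 and 9.04 TPM against 3.49, 3.40 and 1.77 TPM (log2 fold change -1.73, SE 0.19, adjusted p = 0.00121). Plxna2, a semaphorin receptor, was at 30.3, 29.3, 43.9, 29.1 and 28.8 TPM against 9.07, 11.8 and 7.24 TPM (log2 fold change -1.70, SE 0.19, adjusted p = 0.00119). Neither gene overlapped between the litters, which was a condition of the rule that named both, and in Plxna2 the highest library was cKO 1. Of 27 synapse and channel genes 13 were lower, where 25.7% of all genes were, with a median of -0.57. After the length correction 5 were lower, where 10.0% of all genes were, with a median of -0.15. The median longest transcript was 6386 bases in the axon guidance list and 5441 bases in the synapse list. In the bin of all genes with 5137 to 6686 bases, 42.5% were called lower. Syt11, a synaptotagmin, was among those that stayed lower (-0.67), and Cacna2d1, a calcium channel subunit, was among those that did not (-0.72, and -0.28 corrected).

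Cajal-Retzius neurons, the Reln-expressing cells of the marginal zone, were marked by 14 genes, of which 3 were lower and none higher, with a median of -0.18, and of 0.07 after the length correction, which left none lower. That share is near the 25.7% lower over all genes, and the median is near their -0.15. Nhlh2 (-0.40) and Ebf3 (-0.47), factors of these neurons, did not pass without WT 1 (-0.37 and -0.41), WT 2 (-0.40 and -0.52), WT 3 (-0.33 and -0.43), cKO 1 (-0.39 and -0.47), cKO 3 (-0.36 and -0.42) or cKO 4 (-0.43 and -0.48), nor Ebf3 without WT 4 (-0.50). Reln was at 11.1, 15.8, 12.1, 12.1 and 14.02 TPM against 7.38, 8.63 and 6.03 TPM (log2 fold change -0.79, SE 0.15, adjusted p = 0.00596), a call that the length correction removed (-0.23). Lhx1, a LIM factor of these cells, did not pass (-0.59, adjusted p = 0.0677).

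**Figure D3:**
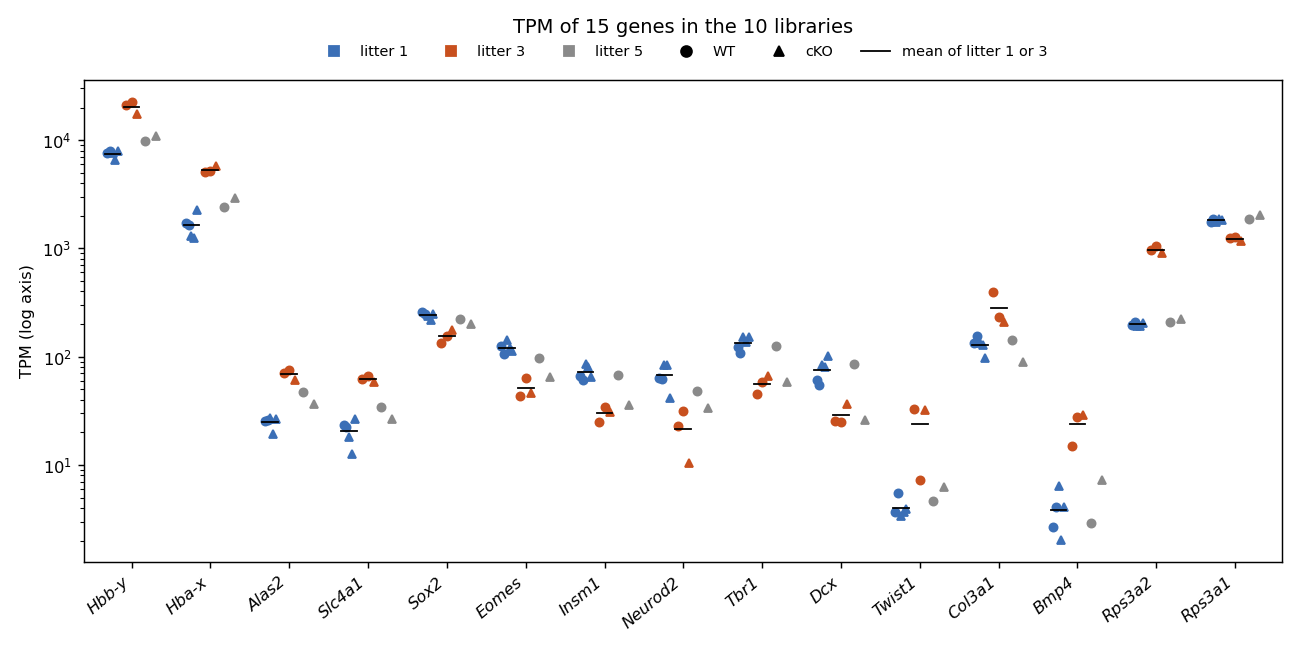
TPM (y axis, log) of 15 genes (x axis) in the 10 libraries, coloured by litter, with circles for WT and triangles for cKO; the bars are the means of litters 1 and 3. Globin and red cell genes, Twist1, Col3a1, Bmp4 and Rps3a2 lie higher in litter 3 than in litter 1, and the progenitor and neuron genes and Rps3a1 lie lower.

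Genes of head mesenchyme and meninges were higher. Of 22 tested, 12 were higher and none lower, where 5.96% and 25.7% of all genes were, with a median of 0.86. After median of ratios scaling 16 were higher, where 11.7% of all genes were. After the length correction 17 were higher, where 8.05% of all genes were. Their summed level was 358 to 483 TPM in litter 1 and 660.0 to 1327 TPM in litter 3. Col3a1, a fibrillar collagen, was at 134, 155, 133, 127 and 97.4 TPM against 398, 232 and 208 TPM (log2 fold change 0.96, SE 0.18, adjusted p = 0.00564). WT 3 was the highest library for this gene, for Col1a1 and for the list as a whole, at 1.34 above the mean of litter 1 against 0.52 in WT 4 and 0.71 in cKO 4. Among the defining markers, Col1a1 was at 42.6, 41.6, 35.8, 40.01 and 26.7 TPM against 199, 55.7 and 57.2 TPM and did not pass (1.07, adjusted p = 0.0526), and Dcn, decorin, overlapped between the litters (0.18, adjusted p = 0.692).

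Regulators of the mesenchyme showed the same direction. Twist1, a basic helix-loop-helix factor of neural crest mesenchyme, was at 3.67, 5.52, 3.36, 3.70 and 3.92 TPM against 32.8, 7.23 and 32.2 TPM (log2 fold change 2.13, SE 0.45, adjusted p = 0.00851). WT 3 and cKO 4 were high and WT 4 was just above litter 1, and without cKO 4 the difference no longer passed (1.60, adjusted p = 0.0774). Foxc1, a forkhead factor needed for the meninges, was at 6.36, 7.11, 5.78, 6.12 and 4.97 TPM against 17.2, 10.4 and 11.99 TPM (log2 fold change 0.93, SE 0.17, adjusted p = 0.00512). Tbx18, a T-box factor of mesenchyme and mural cells, was at 5.05 to 5.90 against 9.36 to 11.8 TPM, and Lum, lumican, a matrix proteoglycan, at 27.2 to 39.00 against 54.03 to 121 TPM.

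Bmp4, Six2 and Col8a2 were among the 12 genes with the largest differences of those higher, taken only from genes whose litters did not overlap. Bmp4, a bone morphogenetic protein of the dorsal midline, surface ectoderm and mesenchyme, was at 2.65, 4.07, 6.45, 2.02 and 4.11 TPM against 15.00, 27.7 and 28.97 TPM (log2 fold change 2.45, SE 0.32, adjusted p = 0.00157). Six2, a homeobox factor of head mesenchyme, was at 3.67, 3.63, 3.82, 3.86 and 3.16 TPM against 19.96, 9.92 and 34.00 TPM (log2 fold change 2.23, SE 0.29, adjusted p = 0.00165). Within litter 3, Bmp4 was lowest in WT 3 and Six2 was lowest in WT 4. Col8a2, a collagen of basement membranes, was at 1.66, 2.87, 1.01, 1.56 and 1.64 TPM against 23.9, 4.28 and 13.7 TPM (log2 fold change 2.18, SE 0.46, adjusted p = 0.00896), and it did not pass without cKO 4 (1.84, adjusted p = 0.0718). Outside these 12, Msx1, a homeobox target of BMP signalling in the dorsal midline and mesenchyme, was at 14.9 to 26.4 against 45.4 to 114 TPM (1.53, adjusted p = 0.00444), and Tfap2b, a factor of neural crest and ectoderm, at 1.00 to 1.82 against 4.32 to 8.57 TPM (1.54, adjusted p = 0.00257).

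Of 18 endothelial genes 5 were called higher and none lower, where 5.96% and 25.7% of all genes were, with a median of 0.28 beside -0.15. With median of ratios scaling 7 were higher. The defining markers Cdh5, Pecam1 and Kdr overlapped between the litters and did not pass, at 0.05, 0.05 and -0.07. Without cKO 4, Plvap, a diaphragm protein of fenestrated vessels (0.60), Ramp2, a receptor partner (0.44), and Egfl7, a secreted vessel protein (0.62), did not pass (0.53, 0.35 and 0.34). Nor did Ramp2 without WT 2 (0.45) or WT 3 (0.42), or Egfl7 without WT 2 (0.62) or WT 4 (0.58). Ramp2 shares sequence with a transcript of Vps25 at 100%, and its reads are uncertain. Emcn, endomucin, of capillaries and veins, was at 8.56, 8.35, 9.14, 6.23 and 8.91 TPM against 21.5, 15.1 and 11.9 TPM (log2 fold change 0.80, SE 0.18, adjusted p = 0.0123). Of 11 pericyte genes 3 were higher and 2 lower, where 5.96% and 25.7% of all genes were, with a median close to 0. After median of ratios scaling 4 were higher and 1 lower, with a median of 0.15, and after the length correction 4 were higher and none lower. The genes lower were Notch3, a receptor of mural cells (-0.66), and Mcam, an adhesion molecule (-0.56), and neither passed without WT 2 (-0.61 and -0.48) or WT 3 (-0.56 and -0.51). Notch3 also did not pass without WT 1 (-0.63), nor Mcam without cKO 4 (-0.57). Vtn, vitronectin, was higher (0.56) and did not pass without WT 1, WT 2, WT 3, WT 4 or cKO 4 in turn (0.50 to 0.66). Tagln, a smooth muscle protein, was at 3.80, 2.61, 4.47, 3.82 and 8.09 TPM against 54.02, 7.00 and 28.1 TPM, with WT 4 inside the range of litter 1 (log2 fold change 2.29, SE 0.55, adjusted p = 0.0144), and did not pass without cKO 4 (2.33, adjusted p = 0.0661).

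Macrophage genes were called higher in 4 of 16, where 5.96% of all genes were, with a median of 0.38 and a summed level of 102 to 125 TPM in litter 1 and 173 to 294 TPM in litter 3. Pf4, platelet factor 4, which platelets and macrophages of the brain's borders express, was at 19.7, 39.1, 24.9, 22.2 and 32.7 TPM against 104, 44.98 and 86.6 TPM (log2 fold change 1.45, SE 0.31, adjusted p = 0.00899), and did not pass without cKO 4 (1.27, adjusted p = 0.0673). The other 3 calls were Fcer1g, an Fc receptor chain (0.66), Lyz2, a lysozyme (0.86), and C1qb, a complement subunit (0.67), and Lyz2 is 95.8% identical to Lyz1, which may share its reads. Without WT 2 none of these 3 passed (0.56, 0.75 and 0.60). Without any other single library but cKO 2, Lyz2 did not pass (0.79 to 0.96), nor did C1qb without WT 1, WT 3, WT 4, cKO 1 or cKO 3 (0.40 to 0.77). After the length correction 2 of the list were higher, and the median was 0.83 within WT and -0.03 within cKO. The defining markers Csf1r, Cx3cr1 and Tyrobp overlapped between the litters and did not pass. The list deviated by 0.91 in WT 3, 0.40 in WT 4 and 0.10 in cKO 4, the first of these again in the library with the most mesenchyme.

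**Figure D4:**
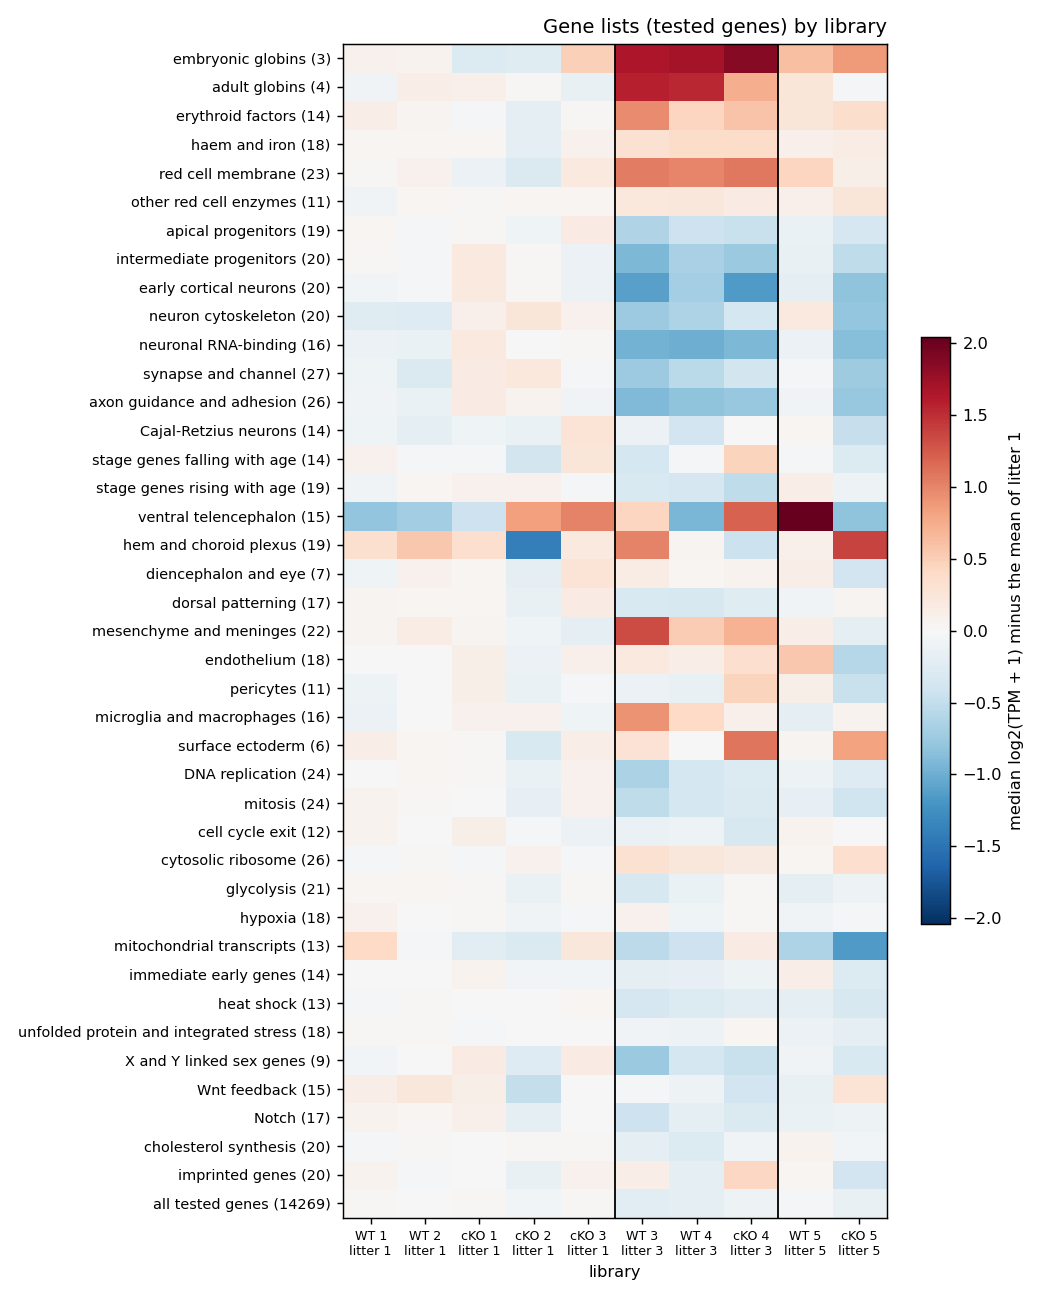
Median log2(TPM + 1) of the tested genes of each of 40 lists, and of all tested genes, in each library, as a difference from the mean of litter 1 (colour scale); black lines separate litters 1, 3 and 5. The 3 libraries of litter 3 share high red cell and mesenchyme lists. They also share low progenitor lists and low neuron lists, except that of Cajal-Retzius neurons. The ventral and choroid plexus lists vary between libraries within each litter, and cKO 5 lies near litter 3 in the neuron lists that are low there.

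Markers of tissue next to the cortex varied between the libraries of each litter. The ventral telencephalic list, of interneuron and ganglionic eminence genes, had 0 of 15 genes higher and 2 lower, where 5.96% and 25.7% of all genes were. Its median was 0.60, but its deviation from the mean of litter 1 ran from -0.81 to 1.02 in litter 1. In litter 3 this deviation was 0.43, -0.93 and 1.20. Dlx1, a homeobox gene of these cells, was at 0.79, 0.36, 3.62, 33.6 and 30.8 TPM in litter 1 and at 13.6, 0.37 and 29.9 TPM in litter 3. It was high in cKO 2, cKO 3, WT 3 and cKO 4 and near 0 in WT 1, WT 2 and WT 4 (log2 fold change 1.23, SE 0.87, adjusted p = 0.32), and Nkx2-1, of the medial eminence, was at or below 0.06 TPM in these 8 libraries.

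Ttr, transthyretin, the most abundant transcript of the choroid plexus, was at 112, 168, 196, 0 and 109.9 TPM against 267, 11.3 and 3.04 TPM (log2 fold change -1.92, SE 1.73, adjusted p = 0.438). It was listed at 0 in cKO 2, was low in WT 4 and cKO 4 and was highest in WT 3. Of 19 hem and choroid plexus genes 3 were higher and none lower, where 5.96% and 25.7% of all genes were. The genes higher were Msx1, Msx2 and Bmp4. Msx2, a relative of Msx1, gave 1.61 (adjusted p = 0.0372) and did not pass without WT 1 (1.61), WT 2 (1.63), WT 3 (1.11) or cKO 4 (1.58). The median was -0.07 and 0.08 after median of ratios scaling. Krt5 and Krt14, keratins of surface ectoderm, were listed at 0 in the other 7 libraries and stood at 2.16 and 1.46 TPM in cKO 4. Irx3, of the diencephalon and other tissues, was at 0.50 to 1.57 against 1.73 to 7.19 TPM (1.29, adjusted p = 0.0238), and did not pass without WT 3 or without cKO 4 (1.16, adjusted p = 0.0749, and 0.77, adjusted p = 0.21).

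Factors that pattern the dorsal telencephalon were lower in 7 of 17 and higher in 1, where 25.7% and 5.96% of all genes were, with a median of -0.39. After median of ratios scaling 5 were lower and 3 higher, and after the length correction 4 were lower and 1 higher. Nr2f1, a nuclear receptor that sets the caudal areas of the cortex, was at 283, 242, 413, 316 and 285 TPM against 135, 154 and 149 TPM (log2 fold change -0.99, SE 0.13, adjusted p = 0.00175). Dmrta2 and Dmrt3, of the medial pallium, differed less (-0.58 and -0.46). In all 3 genes every litter 3 library was below every litter 1 library.

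Genes known to change with the age of cortical progenitors were listed apart, those that decline and those that increase from early to late embryonic stages. The increasing list had 8 of 19 genes lower and none higher, where 25.7% and 5.96% of all genes were. Its median was -0.45, and became -0.31 after median of ratios scaling and -0.11 after the length correction. Nfix, a nuclear factor I gene of later progenitors, was at 121, 159.5, 170.1, 119.8 and 72.1 TPM against 45.7, 58.96 and 27.5 TPM (log2 fold change -1.66, SE 0.27, adjusted p = 0.00328). Its relative Nfia was at 52.2, 63.4, 71.3, 60.9 and 41.8 TPM against 27.1, 24.1 and 17.9 TPM (log2 fold change -1.34, SE 0.18, adjusted p = 0.00184), and Nfib at 74.5 to 128 against 25.1 to 46.2 TPM (-1.52, adjusted p = 0.00157). All 3 nuclear factor I genes were lowest in cKO 4, and none overlapped between the litters, which the rule that named Nfix required.

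Other members of the increasing list gave mixed values. Aldoc, an aldolase of radial glia and astrocytes, was at 76.96, 118, 129, 113 and 26.7 TPM against 41.1, 46.3 and 6.42 TPM (log2 fold change -2.06, SE 0.59, adjusted p = 0.0296), with cKO 3 of litter 1 inside the range of litter 3. It did not pass after median of ratios scaling or the length correction, nor without cKO 4 (-1.11, adjusted p = 0.254), WT 2 (-2.14) or WT 3 (-2.24). Fabp7, a fatty acid binding protein of radial glia, was at 416 to 624 against 508 to 585 TPM and did not pass (0.19, adjusted p = 0.312).

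The declining list had 1 of 14 genes higher and 3 lower, with a median of 0.11. Over all genes 5.96% were higher and 25.7% lower, so that both shares of the list are near those of all genes. Scaled by the median ratio, 3 were higher and none lower. The median was -0.28 within WT and 0.51 within cKO, and the list's deviations from the mean of litter 1 were -0.35 in WT 3, -0.02 in WT 4 and 0.46 in cKO 4, so that cKO 4 alone lay above it. Crabp1, a retinoic acid binding protein that neural crest mesenchyme also expresses, was the gene higher, at 19.9, 22.9, 17.6, 18.5 and 14.7 TPM against 96.1, 34.8 and 108 TPM (log2 fold change 1.92, SE 0.34, adjusted p = 0.00468). Hmga2, a chromatin protein of early progenitors, was at 212, 179, 139, 119 and 309.9 TPM against 141, 174 and 271 TPM and did not pass (0.10, adjusted p = 0.838). Lin28b, an RNA-binding protein of early stages, overlapped between the litters as well (0.44, adjusted p = 0.275). Hmga1, Igf2bp1 and Igf2bp2 were the genes lower, at -0.58, -0.56 and -0.47, and none of them passed after median of ratios scaling. Hmga1 was at 190.1, 257 and 374 TPM in litter 3 against 403 to 440.3 TPM in litter 1, so that cKO 4 was close to litter 1, and its near-identical copy Hmga1b, which matches it at 99.8%, may share its reads. Hmga1 was at -0.89 without cKO 4 and did not pass without WT 1 (-0.50) or WT 2 (-0.51), nor did Igf2bp2 without WT 1 (-0.43), WT 2 (-0.43) or WT 3 (-0.38). Igf2bp1 did not pass without WT 1 (-0.48), WT 2 (-0.53), WT 3 (-0.43), WT 4 (-0.59), cKO 1 (-0.55) or cKO 3 (-0.51).

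Cell cycle genes were lower by modest amounts. Of 24 DNA replication genes 15 were lower and none higher, with a median of -0.45. Of 24 mitosis genes 18 were lower and none higher, with a median of -0.42. Over all genes 25.7% were lower and 5.96% higher. Relative to the median gene the 2 lists were lower by less, with -0.27 and -0.24 after median of ratios scaling. With that scaling 10 and 11 were lower and 2 and 1 higher, where 13.6% and 11.7% of all genes were. Mcm7, a subunit of the replicative helicase, was at 349, 359.8, 378, 333 and 379 TPM against 227, 244 and 265 TPM (log2 fold change -0.53, SE 0.07, adjusted p = 0.0015). Plk1, a mitotic kinase, was at 108 to 137 against 66.6 to 82.6 TPM (-0.75, adjusted p = 0.00184). Pseudogene copies match Mcm7 and Plk1 at 97.7% and 93.5% over most of their length, so a part of their reads may be shared.

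Regulators of cell cycle exit went both ways. Cdkn1c, an inhibitor of cyclin-dependent kinases that is imprinted and is also expressed in mesenchyme, was at 113, 121, 141, 136 and 102 TPM against 253, 143 and 196 TPM (log2 fold change 0.67, SE 0.18, adjusted p = 0.0233), and did not pass without WT 1 (0.65), WT 2 (0.69) or cKO 4 (0.70). Cdkn2c, another inhibitor, was at 27.4 to 32.2 against 12.2 to 20.1 TPM (-0.95, adjusted p = 0.00371). Of 17 Notch pathway genes 7 were lower and none higher, where 25.7% and 5.96% of all genes were. Notch2, a receptor, was at 11.4 to 21.7 against 7.52 to 8.98 TPM (-1.09, adjusted p = 0.00509).

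Ribosomal protein genes were higher. Over the 82 genes of this kind, 20.4%, 19.3% and 19.2% of TPM fell on them in WT 3, WT 4 and cKO 4, against 16.04% to 17.8% in litter 1. The means were 19.6% ± 0.693 (SD, n = 3) and 16.8% ± 0.658 (SD, n = 5), with p = 0.0179 in the two-sided exact permutation test, again the smallest possible. In litter 5 WT 5 was at 17.4% and cKO 5 at 21.3%. Of 26 ribosomal protein genes listed 19 were called higher, where 5.96% of all genes were, with a median of 0.22. These are short transcripts, with a median length of 1139.5 bases. In the bin of all genes with 1074 to 1698 bases, 11.7% were called higher. After the length correction 12 of the list were higher, where 8.05% of all genes were. Rps14, of the small subunit, was at 2767, 2859.9, 2737, 3057 and 2816 TPM against 4320.0, 4048 and 3779 TPM (log2 fold change 0.50, SE 0.06, adjusted p = 0.0015). The share of the mitochondrial transcripts was 1.89% in litter 3 and 1.85% in litter 1 (exact permutation p = 0.821).

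Copies of Rps3a gave the smallest p-values of all genes tested. Rps3a3 (chromosome 13, 108670603 to 108671397) was at 0, 0.15, 0, 0.26 and 0.13 TPM in litter 1 and at 509, 547 and 499 TPM in litter 3, and Rps3a2 (chromosome 14, 88123017 to 88123808) was at 196, 207, 193, 193 and 205 TPM against 960.1, 1041 and 898 TPM. Rps3a1 (chromosome 3, 86137940 to 86142702), the parent gene of the small subunit protein, went the other way, at 1759, 1859, 1767, 1858 and 1844 TPM against 1246, 1274 and 1179.7 TPM. For none of the 3 genes did the litters overlap (adjusted p = 3.39e-09, 3.36e-07 and 0.000838), which the rule that named Rps3a3 and Rps3a2 required. Rps3a1 matches Rps3a3 at 98.9% over 795 bases and Rps3a2 at 99.5% over 792, so how reads were shared among them is uncertain. Their sum was 1955 to 2066 TPM in litter 1 and 2577 to 2862 TPM in litter 3. In litter 5 Rps3a3 was at 0.17 and 0.13, Rps3a2 at 207 and 221 and Rps3a1 at 1875 and 2039 TPM, near litter 1. Rps3a1 was named after its values were seen.

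Other genes at the extremes also share sequence. Gm14822, on the X chromosome, was at 4.58, 12.4, 15.1, 6.53 and 14.5 TPM in litter 1 and was listed at 0 in all of litter 3, and its 291 bases match Plekha8 at 100%. Exosc6, an exosome subunit, was at 0, 0, 0, 1.79 and 0 TPM against 4.97, 14.9 and 2.63 TPM, and its transcript lies wholly within an Aars transcript. AC122306.1 matches Tma16 at 100% over 199 bases. With Gm4349 (3.23), C130021I20Rik (2.09, and 1.70 with no call without cKO 4), Fxyd1 and Hemgn these complete the 12 genes with the largest differences among those higher. Hemgn, a nuclear protein of red cell progenitors, was at 2.14, 1.87, 0.78, 0.42 and 4.85 TPM against 6.72, 7.23 and 18.4 TPM (log2 fold change 2.08, SE 0.50, adjusted p = 0.014), and did not pass without cKO 4 (1.41, adjusted p = 0.126). Fxyd1, phospholemman, a regulator of the sodium pump, was at 0.72, 0.66, 0.76, 0.21 and 0 TPM against 4.83, 24.3 and 3.97 TPM (log2 fold change 2.46, SE 0.46, adjusted p = 0.0056).

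The 12 genes with the largest differences in the other direction included Sez6, Celsr1 and Sorl1. Sez6, a membrane protein of cortical neurons, was at 32.8, 42.97, 62.1, 53.6 and 25.9 TPM against 9.17, 10.7 and 4.92 TPM (log2 fold change -2.30, SE 0.32, adjusted p = 0.00197). Celsr1, a planar polarity cadherin of progenitors, was at 71.2, 65.2, 84.9, 53.1 and 62.4 TPM against 15.5, 22.99 and 18.7 TPM (log2 fold change -1.78, SE 0.17, adjusted p = 0.000965). Sorl1, a sorting receptor, was at 12.5, 13.9, 17.7, 13.3 and 15.4 TPM against 3.39, 3.88 and 3.48 TPM (log2 fold change -1.73, SE 0.14, adjusted p = 0.000764). Celsr1 and Sorl1 are long and kept a fold change of -1.23 and -1.18 after the length correction. Prdm8, a repressor that acts with Bhlhe22, was at 9.84 to 19.8 against 2.12 to 5.95 TPM (-1.76, adjusted p = 0.00346). Gm42778 was also among the 12, with Neurod2, Slit1, Neurod6, Plxna2, Bhlhe22 and Nfix, which are given above.

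**Figure D5:**
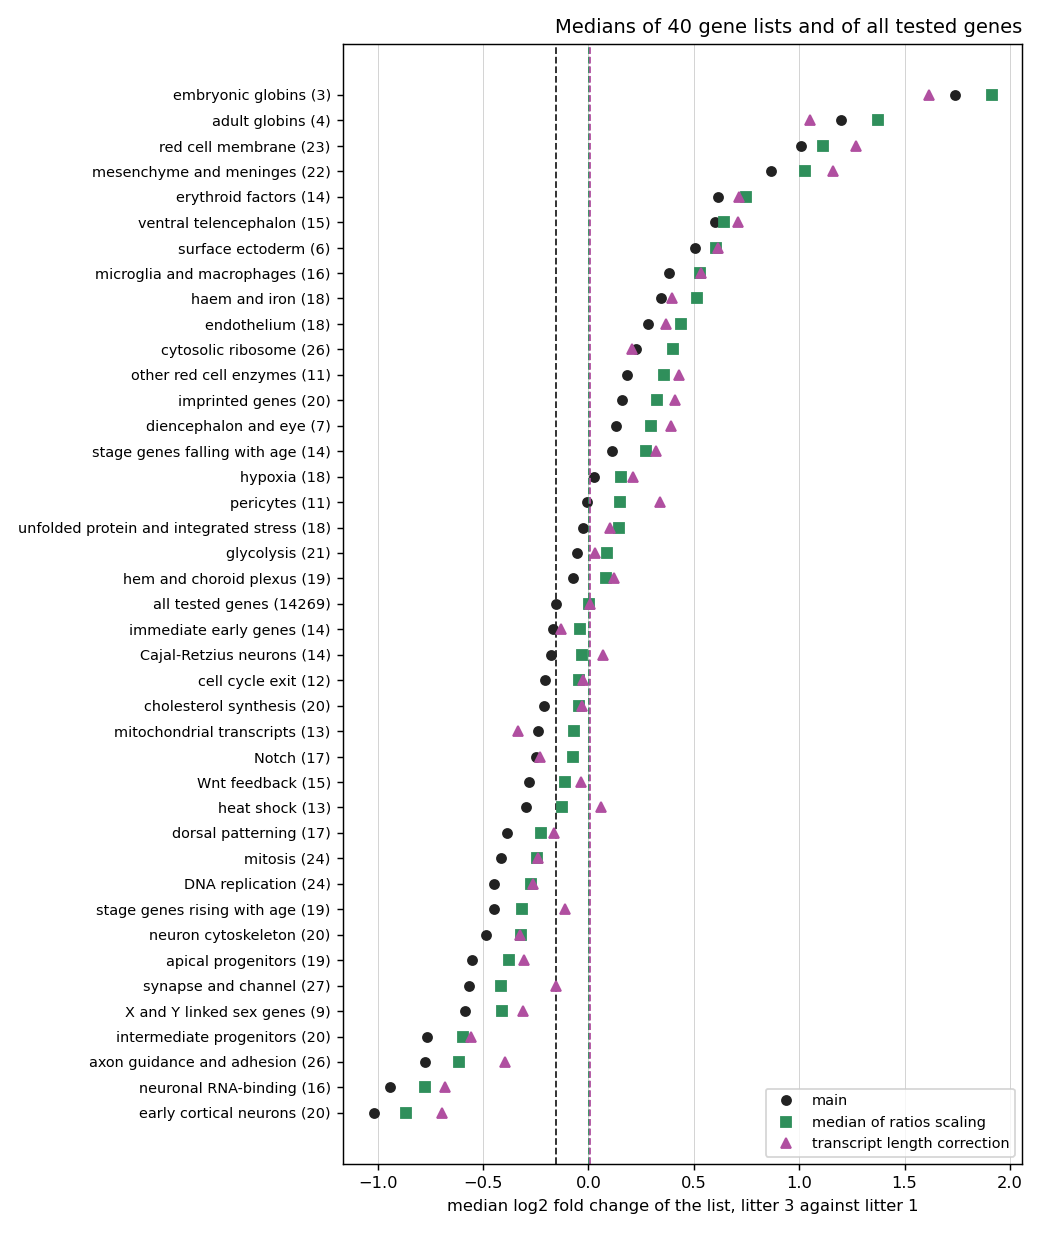
Median log2 fold change of litter 3 against litter 1 (x axis) of the tested genes of each of 40 lists and of all tested genes (y axis, number of genes in parentheses), from TPM as deposited, after median of ratios scaling and after the length correction; dashed lines are the medians of all tested genes. Globins, red cell membrane and mesenchyme genes lie highest and early cortical neuron genes lowest under each treatment, while lists near the middle change sign between them.

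Whether the litter difference was the same in each genotype could be asked with a single cKO library in litter 3. WT libraries alone called 277 genes (1.94%) higher and 2168 (15.2%) lower, and cKO libraries alone, where cKO 4 is assumed to vary like litter 1, called 18 (0.126%) and 9 (0.0631%). For the 4 marker genes the fold changes within WT and within cKO were 1.498 and 1.24 for Hbb-y, 1.61 and 1.91 for Hba-x, -1.19 and -2.56 for Neurod2, and -1.11 and -1.41 for Eomes. The interaction of litter and genotype was called for 3 genes (0.0210%), none of them among those described above, while 882 had an unadjusted p under 0.05. The 3 genes are given further below.

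Litter 5 shares its age and genotypes with the others but has 1 library of each genotype. Against it litter 3 had 4 genes higher (0.0280%), Hbb-y, Hba-a1, Rps3a2 and Rps3a3, and 1 lower (0.00701%), Rps3a1, in a contrast that shares litter 3 with the main comparison. The deviations of WT 5 and cKO 5 from the mean of litter 1 were 0.61 and 0.87 for embryonic globins, -0.14 and -0.52 for intermediate progenitors, -0.18 and -0.82 for early cortical neurons and 0.14 and -0.20 for mesenchyme. The libraries of litter 3 gave 1.66, 1.70 and 1.86, -0.92, -0.67 and -0.76, -1.11, -0.70 and -1.16 and 1.34, 0.52 and 0.71. WT 5 thus lay near litter 1 in the neural lists and cKO 5 nearer to litter 3, and both lay near litter 1 in the mesenchyme list. Across genes, rho of each library's deviation with transcript length was also -0.39 in cKO 5 and 0.04 in WT 5, beside -0.40 to -0.27 in litter 3 and -0.05 to 0.39 in litter 1, and its part in these lists was not tested.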

How the data were processed

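Polyadenylated RNA of embryonic cortex was sequenced, 1 library per animal. The deposited table gives TPM per gene, which the authors made. The submitters' processing notes name cutadapt, featureCounts, DESeq2 and mm10, and the aligner and the tool behind the TPM are not given in the sources used here. TPM keep no read depth, so the depth is unknown. The authors' deposited table of comparisons was not used, nor were 5 value columns with no library name.

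TPM were taken as log2(TPM + 1). Genes with at least 1 TPM in at least 3 of 8 libraries were fitted with limma 3.58.1 in R 4.3.3 (litter and genotype, empirical Bayes, Benjamini-Hochberg adjustment over all genes tested, 5 residual degrees of freedom). Shares of TPM were compared by exact permutation tests over libraries. Median of ratios scaling, quantile normalisation, other pseudocounts and TPM minimums, Xist as a covariate, a loess correction of each library for transcript length, single genotypes, litter 5 as the comparison and leaving out each library were the alternatives. The length correction and the contrast with litter 5 were chosen after seeing the data. Transcript lengths, coordinates and near-identical copies (blastn 2.17.0) came from GENCODE M21 on GRCm38, and promoters from RefSeq.

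Beside the markers, the text names in each direction the 12 called genes with the largest fold change, no overlap and a mean of at least 5 TPM, and up to 4 members of each list with the smallest p. Fabp7, Hmga2 and Lin28b were chosen after their values were seen. The members and the gene lists were chosen with earlier results of these data known.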

Additional observations from a re-analysis of the deposited data

Results flagged for a closer look

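In litter 1, 5 of 32 values tested stood apart from the other 4 libraries by Dixon's criterion, which chance meets in about 1 in 20 groups. Litter 3, with 3 libraries, was not tested. Hbb-y was lowest in cKO 2, at 6615 TPM against 7554 to 7902 TPM in the others. Gm4349 was highest in cKO 2, at 6.08 TPM, and Exosc6 was at 1.79 TPM in cKO 2 and listed at 0 in the other 4. Twist1 was highest in WT 2, at 5.52 TPM against 3.36 to 3.92 TPM, and Plxna2 in cKO 1, at 43.9 TPM against 28.8 to 30.3 TPM. None of these values reached the range of litter 3, but Gm4349, Exosc6, Twist1 and Plxna2 were named by a rule that required no overlap between the litters.

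The interaction of litter and genotype passed the threshold in 3 genes (limma, adjusted over 14269 genes). The cKO arm of litter 3 is the single library cKO 4, so an unusual value in that library and a dependence on genotype cannot be told apart. Gm10226, which matches Zfp983 at 97.4%, had an interaction of -7.01 (adjusted p = 0.0289). It was listed at 0 in WT 1, WT 2, cKO 4, WT 5 and cKO 5, and was at 7.93, 3.87 and 7.82 TPM in cKO 1, cKO 2 and cKO 3 and at 22.8 and 12.2 TPM in WT 3 and WT 4. Vps39, a subunit of a vesicle tethering complex, had an interaction of 1.89 (adjusted p = 0.0289), with 76.5 TPM in cKO 4 and 16.2 to 25.6 TPM in the other 9 libraries. Gm15446 had an interaction of 2.69 (adjusted p = 0.0378). It was at 39.5 TPM in cKO 4 and at 45.5 and 74.1 TPM in WT 5 and cKO 5, against 4.88 to 6.47 TPM in the other 7 libraries. Leaving out cKO 4 leaves no interaction to test.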

How the results depend on the processing

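No paired analysis was possible because litters 1 and 3 share a single animal number, and the numbers name animals of different litters. Beside 851 genes higher and 3668 lower, median of ratios scaling gave 1668 and 1938, quantile normalisation 1626 and 1981, litter 3 against litters 1 and 5 gave 368 and 1748, WT libraries only 277 and 2168, cKO libraries only 18 and 9, and litter 3 against litter 5 gave 4 and 1. Xist as a covariate left 522 higher, and the transcript length correction left 1432 lower. Leaving out 1 library at a time gave 364 to 893 higher and 2311 to 4092 lower. The cause of these differences was not tested, beyond the fewer libraries in some of them. The globin share differed by 3.60 points in WT only (exact permutation p = 0.333), 2.33 in cKO only (p = 0.25) and 2.54 against litter 5 (p = 0.1), where each p is the smallest the number of libraries allows. Against litter 5 the sign turned for Igf2bp1 (0.13), Egfl7 (-0.063), Hsph1 (0.13), Hspa8 (0.21) and Hsp90aa1 (0.012). Of 158 gene results with a call, 122 stayed called whichever library was left out, 136 after median of ratios scaling, 132 after the length correction, 117 in WT only and 8 in cKO only. The median changed sign in some alternative for 13 of 40 lists, in 4 of them after median of ratios scaling and in 6 after the length correction. Depth could not be weighed, since TPM do not keep it.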

Other observations

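Of 20 imprinted genes, many of which act on embryonic growth, 6 were higher in litter 3 and 4 lower, where 5.96% and 25.7% of all genes were, with a median of 0.16. After median of ratios scaling 8 were higher and 1 lower, and after the length correction 8 and 2. H19, a noncoding RNA, was at 172, 182, 174, 143 and 190.0 TPM in WT 1, WT 2, cKO 1, cKO 2 and cKO 3 and at 419, 256 and 416 TPM in WT 3, WT 4 and cKO 4 (log2 fold change 1.06, limma adjusted p = 0.00322). Its neighbour Igf2, a growth factor, was at 96.3 to 124 against 176 to 304 TPM (0.99, adjusted p = 0.0034). In WT 5 and cKO 5 H19 was at 196 and 244 TPM. Plagl1, a zinc finger factor of neural progenitors among other cells, was lower, at 160 to 249 against 95.3 to 144 TPM (-0.88, adjusted p = 0.0072). A transcript of Gm49394 matches most of the length of Igf2 at 100%, so its reads may be shared.

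Cytosolic chaperones were lower in litter 3 by small amounts. Of 13 heat shock genes 8 were lower and 1 higher, where 25.7% and 5.96% of all genes were, with a median of -0.30 that became -0.13 after median of ratios scaling, when 1 stayed lower, and 0.06 after the length correction. Hsph1, a nucleotide exchange factor of Hsp70, was at 154 to 174 TPM in litter 1 and 101 to 107 TPM in litter 3 (-0.66, adjusted p = 0.000888). In WT 5 and cKO 5 it was at 96.3 and 91.9 TPM, so that litter 1 was the litter apart. Of 14 immediate early genes 3 were lower and 1 higher, near the shares of all genes. Of these Egr1 (0.53) and Dusp1 (-0.32) did not pass without WT 1, WT 2, WT 3, WT 4, cKO 3 or cKO 4 in turn, when they gave 0.49 to 0.57 and -0.35 to -0.30. Jun was at 90.3 to 113 against 46.2 to 57.8 TPM (-0.90, adjusted p = 0.00125).

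Of 18 genes that respond to low oxygen 4 were higher and 2 lower, where 5.96% and 25.7% of all genes were. Bnip3, a mitochondrial protein of this group, was at 51.5 to 57.4 against 83.2 to 90.5 TPM (0.66, adjusted p = 0.00115), with 60.7 TPM in WT 5 and 89.7 TPM in cKO 5. Egln1, an oxygen sensor, was lower (-0.45, adjusted p = 0.00453). Of 20 cholesterol synthesis genes 6 were lower and none higher, near the 25.7% lower over all genes, with a median of -0.21. After median of ratios scaling 2 were lower and 1 higher, with a median of -0.04.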
